A study of Caenorhabditis elegans with 14 samples.

Results

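Heat shock of Caenorhabditis elegans control animals was examined by comparing C (HS), rrf-3(pk1426) worms on empty vector RNAi bacteria that were grown at 20 °C and then held at 33 °C for 2 h, with C, worms of the same genotype on the same bacteria that stayed at 20 °C. These groups make up 4 of the 14 libraries of the series, with 2 biological replicates each, and all genes with enough reads were compared, which left 14084 of the 46856 genes in the files. Each library came from whole worms, which the labels put between the last larval stage (L4) and young adulthood while the study's methods also name gravid adults, and the heat-shocked worms were harvested directly after the heat. According to those methods, some rrf-3 animals looked ill or stopped moving after the heat and most of these were picked out by hand. The rrf-3 mutation, which makes animals more sensitive to RNAi, was carried by C (HS) and C alike, so no wild-type animal enters the comparison. The nearest comparison in the series is rIIS-C (HS) against rIIS-C, worms that carry the insulin receptor mutation daf-2(e1368) beside rrf-3(pk1426) and had the same bacteria, temperatures and heat. The other 6 libraries are daf-16i and skn-1i, rIIS animals on daf-16 or skn-1 RNAi at 20 °C, and hsf-1i (HS), rIIS animals on hsf-1 RNAi with the heat shock.

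In the heat shock response, proteins that unfold in the heat draw chaperones away from heat shock factor, HSF-1 in worms, which then forms trimers, binds heat shock elements in promoters and switches on chaperone genes within minutes. In C. elegans the hsp-16 genes, which encode small heat shock proteins that hold unfolded proteins in solution, and the inducible HSP70 genes, whose products refold them with ATP, are close to silent at growth temperature and are the usual readout of the response. Heat also pauses translation and splicing of many other transcripts, and damaged proteins are passed to the proteasome and to autophagy.

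The libraries held 22767301 and 18900987 exon reads in C (HS) and 10094132 and 14769964 in C, against 4681170 to 13039713 in the 10 libraries of other groups. Exon reads that crossed an exon junction made up 14.3% and 16.7% in C (HS), and 9.79% and 23.2% in C. The 10 other libraries all lay near one or the other of the C values (9.39% to 26.3%), and the C (HS) libraries fell between them. The methods name more than one read length and sequencer without saying which library had which, so a difference in sequencing and the heat shock cannot be told apart. With this share as a covariate, chosen after seeing the data, the counts of calls given below were 4079 higher and 3690 lower. Intron reads of genes with annotated exons were 1.69% and 1.28% of gene reads in C (HS), 1.06% and 0.991% in C, and 0.687% to 1.13% elsewhere. The C replicates ranked genes almost alike (Spearman correlation 0.994 across the 14084 genes), and the C (HS) replicates less so (0.945). Of 8741 genes with at least 10 CPM (exon reads scaled to the TMM-adjusted library size), 20.1% differed more than 2-fold between the C (HS) replicates and 0.217% between the C replicates.

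Heat shock was followed by a difference in 52.3% of the genes tested: 3855 were higher in C (HS) (27.4%) and 3506 lower (24.9%), by edgeR's quasi-likelihood test at an adjusted p under 0.05. Among called genes, the median log2 fold change of C (HS) over C was 1.39 for the higher ones and -1.55 for the lower ones. This even split rests on TMM scaling, which assumes that most genes do not change. With library size alone, 996 genes were higher and 7343 lower, and the median over all genes moved to -0.975, against 0.03 with TMM. Values below are relative to that TMM centre, and the median or the counts with library size alone are given beside a list where that median lay below 0 and the TMM median above. Of the genes named below, hsp-6 changed sign with library size alone and the others did not. A change in the total amount of mRNA per animal and a change in its make-up cannot be told apart in these libraries. The test took its spread from all 14 libraries (common dispersion 0.0508), while the 4 libraries of C (HS) and C alone gave 0.0910. Its p-values may therefore understate the spread between the C (HS) replicates. With those 4 libraries alone 2781 genes were higher and 2095 lower.

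The fold change also followed the length of the transcript. Genes higher in C (HS) had a median exon length of 654 bases, those lower 1836 bases, and all genes tested 1098 bases. When genes were put in 10 classes by exon length, the shortest class (36 to 393 bases) had a median log2 fold change of 1.36, with 848 genes higher and 17 lower, and the longest class (2655 to 55407 bases) had a median of -1.47, with 44 higher and 974 lower. Both C (HS) libraries showed the slope, from 1.05 to -1.27 in replicate 1 and from 1.19 to -1.45 in replicate 2, while rIIS-C (HS) over rIIS-C ran from 0.33 to -0.39. The cause of the slope was not tested. Most fold changes and list counts are therefore also given from a second fit in which a smooth curve over exon length was removed from each library. That fit called 5837 genes (41.4%), 3377 of them higher (24%) and 2460 lower (17.5%). List counts below are to be read against these shares, and against 27.4% and 24.9% with the trend kept. The fits shared 2377 higher calls (16.9% of genes tested) and 1858 lower calls (13.2%), and disagreed in direction for 89 genes (0.632%).

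**Figure D1:**
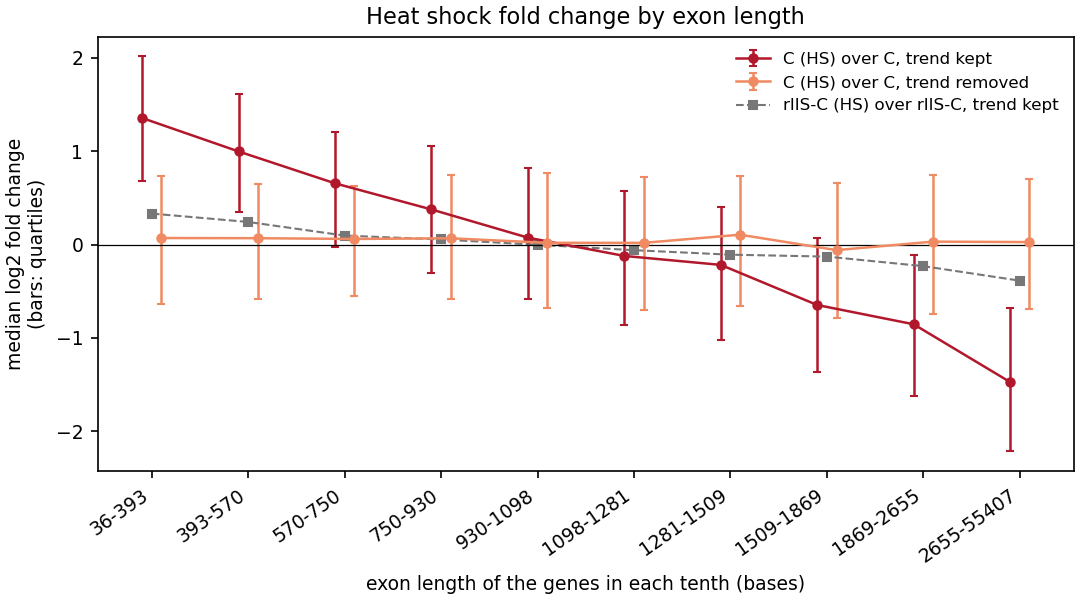
Median log2 fold change (y axis, bars from the lower to the upper quartile) of genes in 10 classes of exon length in bases (x axis, 1408 or 1409 genes each), for C (HS) over C with the trend kept and removed, and for rIIS-C (HS) over rIIS-C without quartile bars. The C (HS) medians run from 1.36 in the shortest class to -1.47 in the longest, and from 0.07 to 0.03 once the trend is removed.

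The heat-inducible chaperone genes were the clearest marker of the treatment, and they match the labels in all 4 libraries. All 9 members tested were higher in C (HS) in both fits, against 27.4% of all genes, with a median log2 fold change of 7.63 with the trend kept and 6.65 with it removed. Together they took 3.43% and 2.15% of exon reads in the C (HS) libraries and 0.0480% and 0.0494% in the C libraries. For hsp-16.2 (chromosome V, 1804441 to 1804924, WBcel235), the libraries held 2823 and 2314 CPM in C (HS) and 8.10 and 8.16 CPM in C. Its log2 fold change came to 8.30 (SE 0.44, edgeR adjusted p = 3.33e-07, or 7.30 with the trend removed). Its neighbour hsp-16.41, which lies head to head with it across 346 bases, showed the largest fitted change of the family, with 4262 and 5035 CPM in C (HS) and 7.43 and 7.66 CPM in C (log2 fold change 9.26, SE 0.67, edgeR adjusted p = 1.87e-06, or 8.23 with the trend removed). In every library of C (HS) each of these genes was far above every library of C.

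A second cluster on chromosome V holds hsp-16.1, hsp-16.48, hsp-16.49 and hsp-16.11 as divergent pairs with 348 bases between the genes of a pair. By exon length and reads, hsp-16.1 goes with hsp-16.11 (438 bases) and hsp-16.48 with hsp-16.49 (432 bases), each gene with a near-identical copy. Of 116391 reads given to hsp-16.48 in C (HS) replicate 1, 1 was unique to it. Levels of single copies are therefore uncertain, while the summed share above does not depend on how reads were split between them. Levels of hsp-16.48 were 7768 and 6003 CPM in C (HS) and 32.3 and 32.2 CPM in C (log2 fold change 7.74, SE 0.55, edgeR adjusted p = 1.87e-06, or 6.72 with the trend removed). Per kilobase of exon (RPKM), hsp-16.48 ranked 4 and 8 among all genes in the C (HS) libraries and 1551 and 1586 in the C libraries. The other 3 genes of the cluster lay between 5035 and 7734 CPM in C (HS) and between 24.4 and 35.3 CPM in C, with log2 fold changes of 7.62 (hsp-16.1), 7.63 (hsp-16.49) and 7.65 (hsp-16.11), or 6.61, 6.61 and 6.65 with the trend removed.

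Among the HSP70 genes, hsp-70 (chromosome I, 9320412 to 9322481) had 1606 and 1068 CPM in C (HS) and 19.8 and 17.9 CPM in C (log2 fold change 6.15, SE 0.43, edgeR adjusted p = 1.87e-06, or 6.89 with the trend removed). In C only 8 of its 264 reads in replicate 1 and 14 of 356 in replicate 2 were unique to it, and with unique reads alone the log2 fold change was 10.95. The divergent and near-identical pair F44E5.4 and F44E5.5 (chromosome II, 446 bases apart) separated the heat-shocked replicates. F44E5.4 had 7599 and 823 CPM in C (HS), a 9.23-fold gap between replicates, and 107.7 and 101.9 CPM in C (log2 fold change 5.33, SE 0.73, edgeR adjusted p = 9.50e-05, or 6.04 with the trend removed). Its rise held in both C (HS) libraries, but its size did not.

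**Figure D2:**
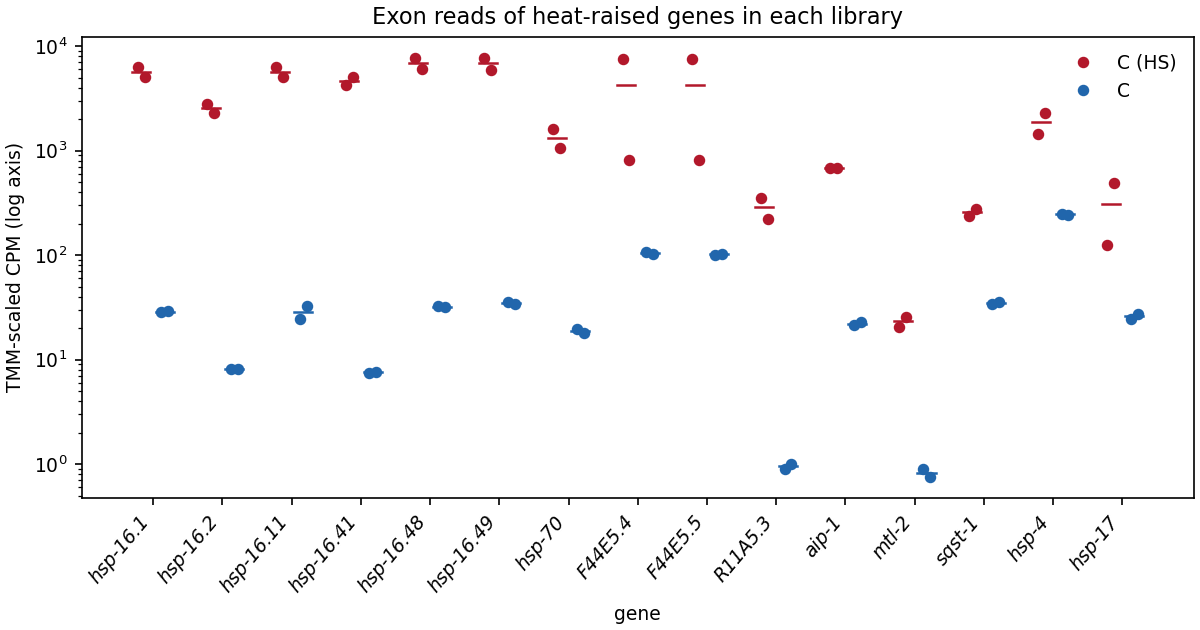
TMM-scaled CPM of exon reads (y axis, log axis) of 15 genes higher in C (HS) (x axis). Each point is a library, each bar the mean of 2, and C (HS) stands left of C. For all 15 genes both C (HS) points lie above both C points, and for F44E5.4 and F44E5.5 the C (HS) points lie about 9 times apart.

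A further 8 genes had at most 3 reads in each C library and at least 10 CPM in both C (HS) libraries, while 0 genes showed the opposite pattern. For F59H6.5 there were 1346 and 6137 reads in C (HS), of which 69 and 330 were unique, and 0 in both C libraries. Its mean CPM in C (HS) was 1532 times a floor of 3 reads per C library, with the replicates at 89.8 and 486 CPM. Y38H6C.8 had 300 and 529 reads in C (HS), all of them unique, and 0 in both C libraries (165 times the floor). F33H12.6 (265 and 334 reads in C (HS), 27 and 43 of them unique, against 0 and 0 in C) was at 117 times the floor. These ratios take total reads and the C (HS) mean, so they are no lower bound for a single library or for unique reads. In the other 10 libraries none of the 8 had more than 8 reads.

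Near-identical copies stand among these genes as well. Y53F4B.7 had 2282 and 1265 reads in C (HS), of which 282 and 71 were unique, and 0 and 1 in C, a ratio of 4264 (95% counting interval 765 to 168500). Y53F4B.26 had 1509 and 523 reads in C (HS), none unique, and 0 and 1 in C (ratio 2443). The F-box gene fbxb-14, of a family of ubiquitin ligase adaptors, had 200 and 776 reads in C (HS) and 0 and 2 in C (ratio 587, interval 162 to 4851), again with no unique read. ZK250.9 (288 and 363 reads in C (HS), none unique, against 3 and 0 in C) and Y75B8A.39 (228 and 484 in C (HS), all unique, against 2 and 2 in C) had ratios of 261 and 214. R11A5.3, with unique reads throughout, stood just outside this set at 355 and 223 CPM in C (HS) and 0.900 and 1.01 CPM in C (log2 fold change 8.22, SE 0.42, edgeR adjusted p = 3.33e-07, or 7.30 with the trend removed).

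Beyond the inducible genes, 11 of 12 other small heat shock protein genes were higher and none lower (median 2.05, against 0.03 for all genes), and 7 were higher with the length trend removed (median 1.12). hsp-17 had 124 and 489.7 CPM in C (HS) and 24.2 and 27.6 CPM in C (log2 fold change 3.56, SE 0.50, edgeR adjusted p = 0.000112, or 2.51 with the trend removed). F08H9.4 was at 4.87 and 16 CPM in C (HS) and 0.525 and 0.252 CPM in C (log2 fold change 4.80, SE 0.77, or 3.75 with the trend removed). For these 2 genes the higher library was C (HS) replicate 2, unlike F44E5.4.

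In the cytosolic HSP70 and HSP90 machinery, 13 of 16 genes were higher and none lower (median 1.29), and 14 were higher and 1 lower with the trend removed (median 1.202). The co-chaperone sti-1, which links HSP70 to HSP90, had 366 and 749.5 CPM in C (HS) and 89.1 and 107.6 CPM in C (log2 fold change 2.50, SE 0.31, edgeR adjusted p = 4.94e-05, or 2.38 with the trend removed). The HSP40 gene dnj-13 had 745 and 367 CPM in C (HS) and 116 and 114 CPM in C (log2 fold change 2.27, SE 0.27, or 2.18 with the trend removed). unc-23, a BAG-type co-chaperone of HSP70, had 386 and 59.6 CPM in C (HS) and 47.9 and 44.7 CPM in C, so its change of 2.27 (log2, SE 0.55, edgeR adjusted p = 0.00403, or 2.58 with the trend removed) came mostly from replicate 1. Without that library it was 0.36 with the trend kept and 0.75 with it removed. Of 14 chaperonin and prefoldin genes, which fold actin and tubulin, 11 were higher and none lower (median 0.99, or -0.02 with library size alone), and 11 were higher and 1 lower with the trend removed (median 0.81).

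The unfolded protein response of the endoplasmic reticulum was mixed. Of 22 genes in this list 10 were higher and 4 lower (median 0.12, -0.89 with library size alone), and 12 were higher and 2 lower with the trend removed (median 0.86). hsp-4, the BiP chaperone of the reticulum, was at 1441 and 2308 CPM in C (HS) and 247.7 and 243 CPM in C (log2 fold change 2.93, SE 0.26, edgeR adjusted p = 6.69e-06, or 3.72 with the trend removed). xbp-1, the transcription factor of this response, had 347 and 316 CPM in C (HS) and 105 and 125 CPM in C (log2 fold change 1.53, SE 0.19, or 1.49 with the trend removed), and pdi-2, a protein disulfide isomerase, had a log2 fold change of 1.36 (SE 0.22, or 1.81 with the trend removed). In contrast, calnexin (cnx-1) was at 56.4 and 74.7 CPM in C (HS) and 169 and 160.1 CPM in C (log2 fold change -1.33, SE 0.21, edgeR adjusted p = 0.000258, or -0.60 with the trend removed). The stress sensor ire-1, with 16.42 and 27.7 CPM in C (HS) and 75.2 and 68.2 CPM in C, had a log2 fold change of -1.70 (SE 0.26), but at -0.52 it did not pass the test with the trend removed (edgeR adjusted p = 0.0806).

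Of 12 mitochondrial folding genes 4 were higher and 6 lower (median -0.50), against 27.4% and 24.9% of all genes. With the trend removed 2 were higher and 3 lower (median 0.05), near the 24% and 17.5% of all genes for a list this small. ubl-5, a ubiquitin-like protein of the mitochondrial unfolded protein response, had 112 and 201 CPM in C (HS) and 17.03 and 16.17 CPM in C (log2 fold change 3.24, SE 0.41, or 1.78 with the trend removed). The mitochondrial protease lonp-1 was at 32.4 and 28.2 CPM in C (HS) and 136 and 111 CPM in C (log2 fold change -2.02, SE 0.27, or -0.85 with the trend removed). For the mitochondrial HSP70 gene hsp-6 the libraries held 1502 and 722 CPM in C (HS) and 645.5 and 604 CPM in C. Its change of 0.83 with the trend kept (log2, SE 0.30, edgeR adjusted p = 0.0318) was 0.20 without C (HS) replicate 1 (edgeR adjusted p = 0.486) and changed sign with library size alone (-0.18). With the trend removed it was 1.59 (edgeR adjusted p = 0.000306), and 1.05 without that library (edgeR adjusted p = 0.000119).

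Genes of protein removal were called higher more often than lower with TMM scaling. Among 33 proteasome subunits 21 were higher and 3 lower (median 0.74), and 22 were higher and 1 lower with the trend removed (median 0.76), although the median was -0.26 with library size alone. The catalytic subunit gene pbs-1 had 241 and 589.5 CPM in C (HS) and 95.4 and 85.8 CPM in C (log2 fold change 2.20, SE 0.35, edgeR adjusted p = 0.000276, or 1.70 with the trend removed). Of 22 ubiquitin and CDC-48 genes 13 were higher and 1 lower (median 0.71, -0.29 with library size alone), with 14 and 1 once the trend was removed (median 0.67).

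The arsenite-inducible zinc finger protein aip-1, which acts with the proteasome, responded evenly. It had 689.8 and 679.5 CPM in C (HS) and 21.5 and 22.8 CPM in C (log2 fold change 4.95, SE 0.23, edgeR adjusted p = 1.85e-07, or 4.29 with the trend removed), and the heat-shocked replicates differed by a ratio of 1.01. ufd-2, which extends ubiquitin chains, was the lower gene of the list in both fits, at 28.97 and 38.99 CPM in C (HS) and 142 and 120.3 CPM in C (log2 fold change -1.95, SE 0.28, or -0.75 with the trend removed). In autophagy 12 of 28 genes were higher and 7 lower (median 0.55, -0.45 with library size alone), so lower calls were about as common as the 24.9% of all genes. With the trend removed 10 were higher and 0 lower (median 0.45). The ubiquitin receptor sqst-1, which hands cargo to autophagosomes, led them with 236 and 277 CPM in C (HS) and 34.2 and 35.5 CPM in C (log2 fold change 2.88, SE 0.19, edgeR adjusted p = 1.29e-06, or 3.71 with the trend removed).

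The transcripts of the 3 stress regulators that the series targets by RNAi showed no direction that held in both fits. Heat shock factor hsf-1 had 25.2 and 31.9 CPM in C (HS) and 44.3 and 43.9 CPM in C. Its change of -0.63 (log2, SE 0.21, edgeR adjusted p = 0.0256) turned to 0.18 with the length trend removed (edgeR adjusted p = 0.430). daf-16, the FOXO factor, had 52.4 and 33.1 CPM in C (HS) and 71.4 and 63.9 CPM in C (-0.66, edgeR adjusted p = 0.0764, and 0.35 with the trend removed, edgeR adjusted p = 0.189). skn-1, the Nrf-type factor, had 90.8 and 81.5 CPM in C (HS) and 98.2 and 91.7 CPM in C, a change of -0.14 (log2, SE 0.21, edgeR adjusted p = 0.605) that became 0.70 with the trend removed (edgeR adjusted p = 0.00386).

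The whole list of 19 genes holds stress transcription factors and some of their regulators (egl-9, hsb-1 and wdr-23). Of these 19 genes 8 were higher and 4 lower (median 0.09, -0.93 with library size alone), against 27.4% and 24.9% of all genes. With the trend removed 7 were higher and 1 lower (median 0.35), against 24% and 17.5%. The bZIP factor cebp-1 had 89.4 and 78.5 CPM in C (HS) and 8.10 and 8.86 CPM in C (log2 fold change 3.30, SE 0.24, edgeR adjusted p = 1.87e-06, or 3.17 with the trend removed). A second bZIP gene, zip-10, had 80.02 and 18.2 CPM in C (HS) and 4.202 and 4.48 CPM in C (log2 fold change 3.5, SE 0.52, or 2.67 with the trend removed). egl-9, the oxygen-sensing hydroxylase that marks HIF-1 for removal, was at 7.08 and 5.63 CPM in C (HS) and 26.6 and 29.1 CPM in C (log2 fold change -2.13, SE 0.20, edgeR adjusted p = 1.07e-05, or -1.22 with the trend removed).

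Of 22 oxidative stress genes 18 were higher and 2 lower (median 1.28), and 14 and 2 with the trend removed (median 0.88). Copper-zinc superoxide dismutase sod-1 had 229.5 and 377 CPM in C (HS) and 66.5 and 58.9 CPM in C (log2 fold change 2.28, SE 0.26, or 1.44 with the trend removed), and the glutathione S-transferase gst-4 had 114 and 53.1 CPM in C (HS) and 19.9 and 19.6 CPM in C (log2 fold change 2.08, SE 0.36, or 1.48 with the trend removed). In the metal response 5 of 11 genes were higher and none lower (median 0.49, -0.52 with library size alone), and 6 were higher and 1 lower with the trend removed. The metallothionein mtl-2 rose to 20.8 and 25.8 CPM in C (HS), against 0.900 and 0.755 CPM in C (log2 fold change 4.81, SE 0.45, edgeR adjusted p = 9.24e-06, or 3.31 with the trend removed). Of 143 antimicrobial family genes 57 were higher and 25 lower (median 0.39, -0.60 with library size alone), against 27.4% and 24.9% of all genes. With the trend removed 39 were higher and 26 lower, near the 24% and 17.5% of all genes. Of 29 intracellular pathogen response genes 5 were higher and 2 lower in either fit (median 0.21, -0.70 with library size alone), both below the shares of all genes. The lysozyme gene lys-5 had 0 and 1 reads in C (HS) and 59 and 88 reads in C, of which 24 and 28 were unique (edgeR adjusted p = 6.69e-06).

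**Figure D3:**
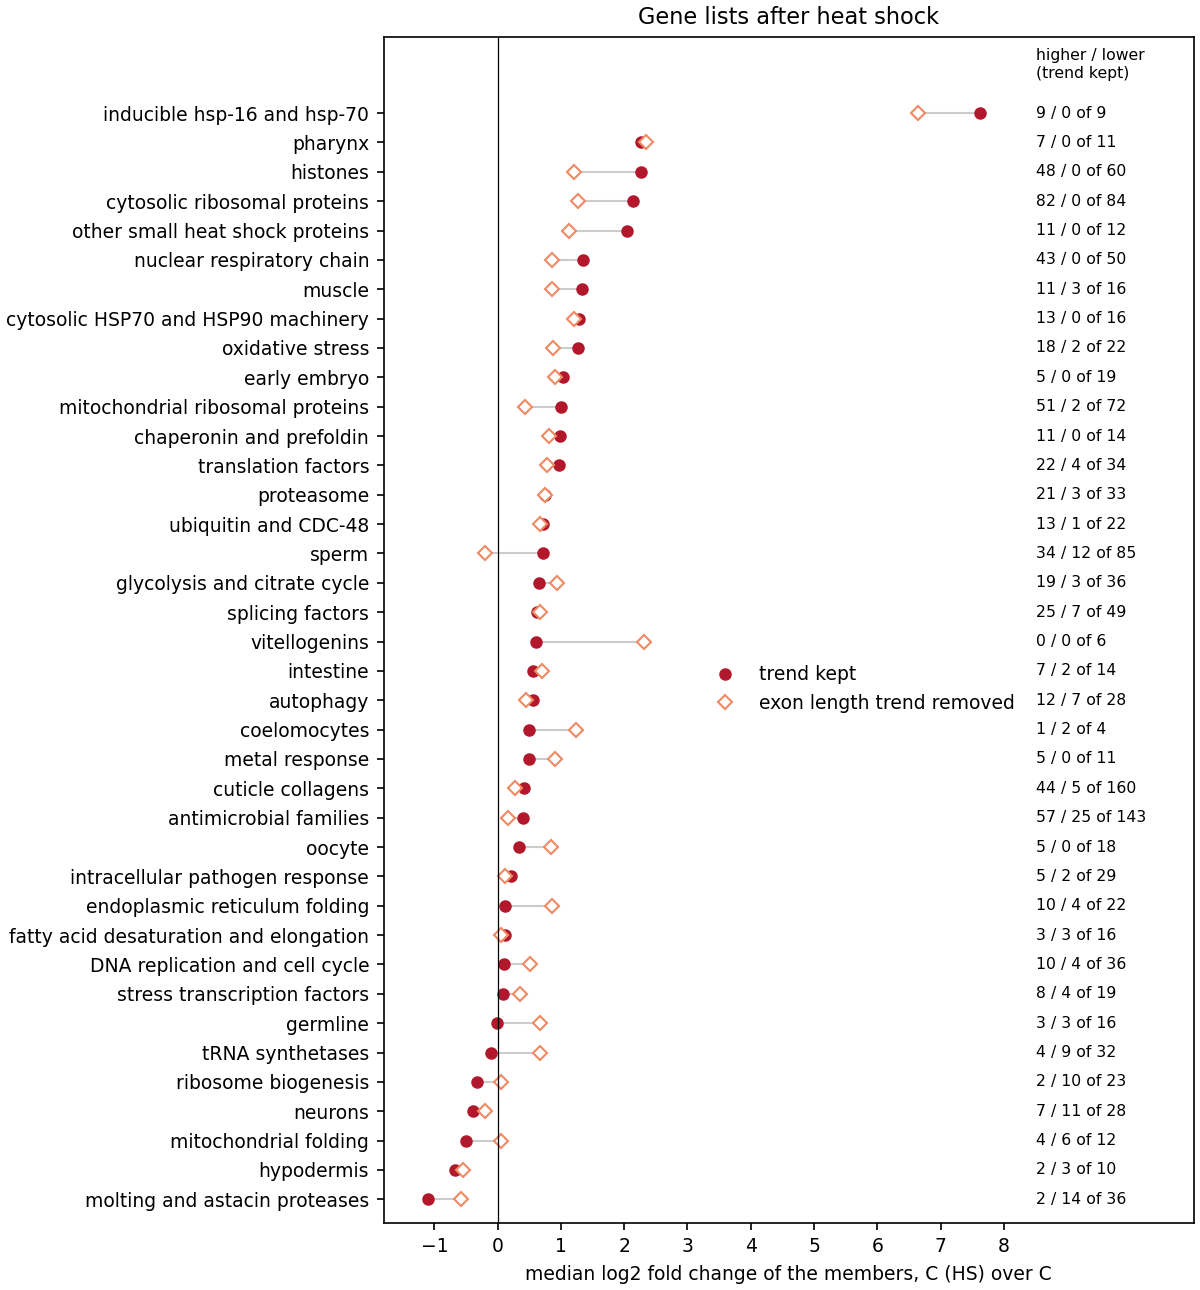
Median log2 fold change of C (HS) over C (x axis) of the tested members of each gene list (y axis), with the exon length trend kept (filled) and removed (open), and the members called higher and lower with the trend kept. The inducible hsp genes stand apart at 7.63 and 6.65. The values are TMM-scaled: with library size alone medians are about 1 lower, and those of several lists, such as the proteasome at 0.74, lie below 0.

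The translation machinery made up a larger share of reads after heat shock. Cytosolic ribosomal protein genes took 19.3% and 24.0% of exon reads in C (HS) and 9.55% and 10.7% in C. Of 84 such genes 82 were higher and none lower (median 2.14), 74 with the trend removed (median 1.28) and 75 with library size alone (median 1.13). The acidic protein gene rla-1 had 3346 and 3584 CPM in C (HS) and 300.5 and 231 CPM in C (log2 fold change 3.70, SE 0.39, edgeR adjusted p = 1.93e-05, or 2.48 with the trend removed), and rpl-34 had 3137 and 4465 CPM in C (HS) and 380.4 and 418 CPM in C (log2 fold change 3.25, SE 0.29, or 2.02 with the trend removed). These are short genes, with a median exon length of 444 bases in the list, so the length trend carries part of the value.

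Other parts of the machinery behaved differently. Of 23 ribosome biogenesis genes 2 were higher and 10 lower (median -0.33), with 4 and 4 once the trend was removed. With library size alone 0 were higher and 20 lower (median -1.33). Among 34 translation factors 22 were higher and 4 lower in either fit (median 0.97, -0.04 with library size alone). The scaffold gene ifg-1 (eIF4G) was at 53.1 and 73.5 CPM in C (HS) and 305 and 263 CPM in C (log2 fold change -2.17, SE 0.31, edgeR adjusted p = 0.000140, or -0.79 with the trend removed). Aminoacyl-tRNA synthetases depended on the fit: 4 of 32 were higher and 9 lower with the trend kept (median -0.10), against 21 higher and 7 lower with it removed (median 0.66). With library size alone 0 were higher and 27 lower (median -1.11). They took 0.261% and 0.235% of exon reads in C (HS) and 0.559% and 0.535% in C. lars-2, which charges leucine tRNA in mitochondria, was lower in both fits, at 7.67 and 8.4 CPM in C (HS) and 47.6 and 45.7 CPM in C (log2 fold change -2.54, SE 0.30, or -1.50 with the trend removed). Of 49 splicing factors 25 were higher and 7 lower (median 0.63, -0.38 with library size alone), and 27 and 3 with the trend removed (median 0.67).

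In energy metabolism 43 of 50 nuclear genes of the respiratory chain were higher and none lower (median 1.35), and 36 were higher and 1 lower with the trend removed (median 0.86). cox-7C, a cytochrome c oxidase subunit, had 401 and 692 CPM in C (HS) and 92.2 and 80.2 CPM in C (log2 fold change 2.66, SE 0.27, or 1.27 with the trend removed). Mitochondrial ribosomal proteins were higher in 51 of 72 cases and lower in 2 (median 1.00), in 32 and 7 with the trend removed (median 0.43), but in 7 and 18 with library size alone. Glycolysis and citrate cycle genes were higher in 19 of 36 cases and lower in 3 (median 0.66, -0.35 with library size alone), and in 29 and 3 with the trend removed (median 0.95).

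Genes of fat and nutrient uptake went both ways. fat-5, a fatty acid desaturase, had 13.2 and 6.97 CPM in C (HS) and 0.975 and 0.957 CPM in C (log2 fold change 3.37, SE 0.46, edgeR adjusted p = 0.000100, or 3.29 with the trend removed). The elongases elo-5 and elo-6, which make branched-chain fatty acids, were lower: elo-5 had 132 and 84.4 CPM in C (HS) and 375 and 400.3 CPM in C (log2 fold change -1.84, SE 0.29, or -2.16 with the trend removed). elo-6 had 160.4 and 42.1 CPM in C (HS) and 462 and 501 CPM in C (log2 fold change -2.25, SE 0.43, or -2.56 with the trend removed). Of 16 desaturases and elongases 3 were higher and 3 lower (median 0.11, -0.90 with library size alone), or 5 and 4 with the trend removed, so fewer were called with the trend kept than among all genes.

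A pair of intestinal genes fell with them, in a list of 14 intestinal markers of which 7 were higher and 2 lower (7 and 4 with the trend removed, 2 and 6 with library size alone). The acid phosphatase pho-1 had 22.96 and 12.7 CPM in C (HS) and 115 and 115 CPM in C (log2 fold change -2.68, SE 0.25, edgeR adjusted p = 9.02e-06, or -2.39 with the trend removed), and the peptide transporter pept-1 had 40.6 and 20.2 CPM in C (HS) and 183 and 183 CPM in C (log2 fold change -2.58, SE 0.28, or -1.59 with the trend removed). The 6 vitellogenins, yolk proteins made in the intestine, showed what the length trend can do. None was called with the trend kept (median 0.61, -0.40 with library size alone), and all 6 were called higher with it removed (median 2.31), since their exons span 4812 to 4956 bases. They took 4.90% and 3.30% of exon reads in C (HS) and 5.66% and 5.001% in C.

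Cuticle collagens were one of several lists in which the heat-shocked replicates went separate ways. Desaturases and elongases were another, with median log2 ratios to the mean of C of 0.39 in replicate 1 and -0.31 in replicate 2. Molting and astacin protease genes were below C in both, at -0.56 and -1.56. Of 160 collagens 44 were higher and 5 lower, against 27.4% and 24.9% of all genes, but with library size alone 15 were higher and 25 lower. Without C (HS) replicate 2 these counts were 83 and 4, and without C (HS) replicate 1 they were 25 and 57. In C (HS) replicate 1 the median log2 ratio to the mean of C was 1.06, and in replicate 2 it was -0.79. Collagens were higher in replicate 1 than in replicate 2 for 148 of 160 genes, and more than 2-fold higher for 105 (65.6%, against 12% of all genes). They took 17.9% and 9.49% of exon reads in C (HS) and 10.5% and 10.2% in C. No direction of the collagen list therefore holds for both libraries, whereas col-140, the gene with the most reads per kilobase in both C (HS) libraries, was higher in each, at 23920 and 19330 CPM in C (HS) and 4427 and 3809 CPM in C (log2 fold change 2.39, SE 0.28, edgeR adjusted p = 3.34e-05, or 2.13 with the trend removed).

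Hypodermal markers had a median of 0.07 in C (HS) replicate 1 and -1.74 in replicate 2 over 10 of 11 genes tested, but 4 of the 10 are themselves in the collagen list. Over the other 6 the medians were -0.10 and -0.65, and 4 of the 6 were higher in replicate 1. The list took reads of 0.779% and 0.416% in C (HS) against 0.453% and 0.477% in C. Pharyngeal markers had medians of 2.29 and 0.87 over 11 genes. Oocyte genes leaned to the other library, with 0.07 in replicate 1 and 0.67 in replicate 2 over 18 genes. The part of these markers in the collagen values was not tested, and in whole worms fewer cells of a type and less RNA per cell cannot be told apart.

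**Figure D4:**
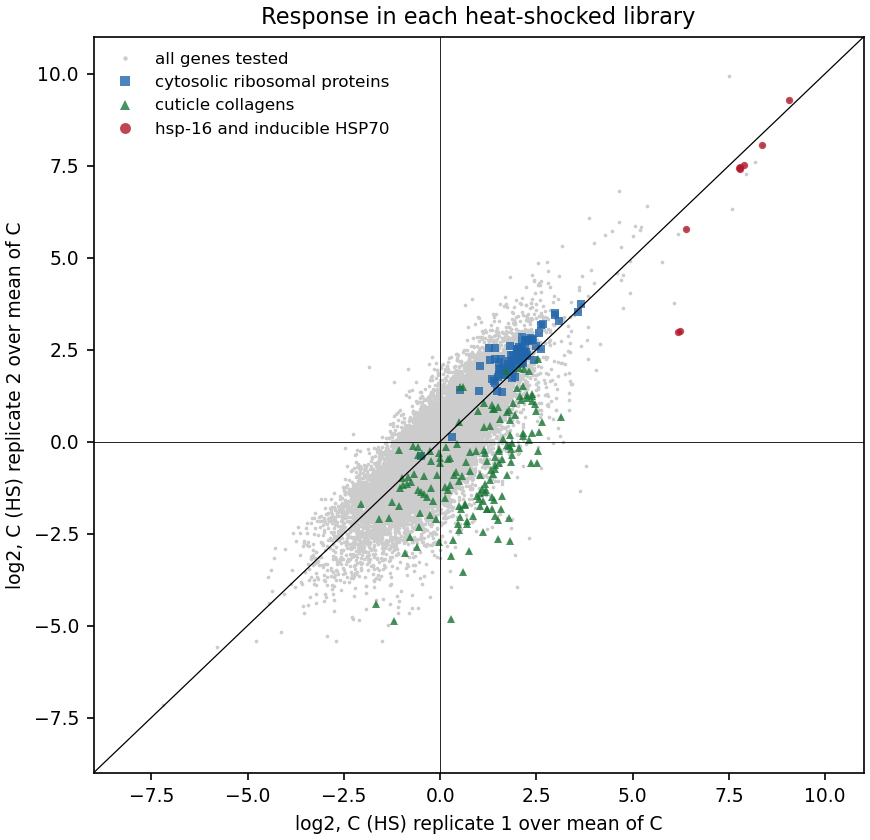
Log2 ratio of C (HS) replicate 2 to the mean of C (y axis) against that of C (HS) replicate 1 (x axis) for every gene tested (grey), with cytosolic ribosomal proteins, collagens and the inducible hsp genes marked. Ribosomal proteins (medians 2.00 and 2.25) follow the diagonal, collagens (medians 1.06 and -0.79) lie below it, and the F44E5.4 and F44E5.5 points lie apart from the other inducible genes.

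Among molting and astacin protease genes 2 of 36 were higher and 14 lower (median -1.1, or -0.57 with 1 and 10 once the trend was removed). nas-37, an astacin protease of the molt, had 7.54 and 3.80 CPM in C (HS) and 43.7 and 48.25 CPM in C (log2 fold change -3.01, SE 0.27, edgeR adjusted p = 7.54e-06, or -2.10 with the trend removed). Of 60 histone genes, whose mRNAs mostly lack a poly(A) tail, 48 were higher and none lower (median 2.26), and 30 and 1 with the trend removed (median 1.21).

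Markers of every major tissue were detected, as whole worms should give. Muscle genes were higher in 11 of 16 cases and lower in 3 (median 1.33, or 0.86 with 10 and 1 once the trend was removed), pharyngeal genes higher in 7 of 11 and lower in none in either fit (median 2.27, or 2.35 with the trend removed). Of all genes 27.4% were higher and 24.9% lower, or 24% and 17.5% with the trend removed. The pharyngeal myosin myo-2 had 131 and 36.2 CPM in C (HS) and 12.8 and 11.1 CPM in C (log2 fold change 2.81, SE 0.51, edgeR adjusted p = 0.000599, or 4.65 with the trend removed). The giant muscle proteins show how far the answer for a long gene hangs on the fit. Twitchin (unc-22, 22026 bases of exon) was at 5.61 and 2.22 CPM in C (HS) and 65.4 and 47.7 CPM in C, a log2 fold change of -3.83 (SE 0.45) that shrank to -0.75 with the trend removed. Obscurin (unc-89, 24384 bases) changed sign, with 13.2 and 6.89 CPM in C (HS) and 65.5 and 46.5 CPM in C, from -2.47 (SE 0.43, edgeR adjusted p = 0.000486) with the trend kept to 0.71 with it removed (edgeR adjusted p = 0.0364).

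Neuronal genes were higher in 7 of 28 cases, about the 27.4% of all genes, and lower in 11, against 24.9% (median -0.39). With the trend removed 3 were higher and 8 lower (median -0.20), against 24% and 17.5% of all genes. The synaptic vesicle kinesin unc-104 had 3.34 and 1.11 CPM in C (HS) and 32.6 and 26.2 CPM in C (log2 fold change -3.69, SE 0.42, or -2.01 with the trend removed). Among germline markers 3 of 16 were higher and 3 lower, below the 27.4% and 24.9% of all genes, and 8 and 2 with the trend removed. With library size alone 0 were higher and 12 lower (median -1.01). The germline list took 0.0965% and 0.121% of exon reads in C (HS) and 0.228% and 0.223% in C. Among DNA replication and cell cycle genes 10 of 36 were higher, about the share of all genes, and 4 lower (median 0.10, -0.90 with library size alone), and 19 and 0 with the trend removed. Sperm genes were higher in 34 of 85 cases and lower in 12 with the trend kept, against 27.4% and 24.9% of all genes. With the trend removed 6 were higher and 11 lower, against 24% and 17.5%, and with library size alone 3 and 27. Early embryo genes were higher in 5 of 19 cases, about the 27.4% of all genes, with none lower. With the trend removed 1 was higher, below the 24% of all genes, and 0 were lower. Coelomocyte genes were higher in 1 of 4 cases with 2 lower (2 and 1 with the trend removed, median 0.49, or -0.51 with library size alone). Of 18 oocyte genes 5 were higher, about the share of all genes, and none lower (median 0.33, -0.67 with library size alone), and 11 were higher with the trend removed. The eggshell gene perm-2 led the oocyte list, with 1080 and 2681 CPM in C (HS) and 349 and 421 CPM in C (log2 fold change 2.29, SE 0.34, or 1.59 with the trend removed).

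The genes that fell furthest with the trend kept, among those called lower in both fits, included long and short transcripts. T04F3.1 was at 8.68 and 5.39 CPM in C (HS) and 285.5 and 215 CPM in C (log2 fold change -5.14, SE 0.36, edgeR adjusted p = 1.87e-06, or -2.69 with the trend removed), and the laminin chain lam-3, a basement membrane protein with 9309 bases of exon, at 1.201 and 0.317 CPM in C (HS) and 33.8 and 24.6 CPM in C (log2 fold change -5.20, SE 0.50, or -2.87 with the trend removed). The dipeptidyl peptidase gene dpf-6, with 2241 bases, kept most of its change, at 0.334 and 0.238 CPM in C (HS) and 12.5 and 9.22 CPM in C (log2 fold change -5.18, SE 0.40, or -4.30 with the trend removed). In all 3 genes both C (HS) libraries were far below both C libraries.

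The sulfatase gene sul-3, at 0.534 and 0.0793 CPM in C (HS) and 10.9 and 9.77 CPM in C, had a log2 fold change of -4.96 (SE 0.44, or -4.55 with the trend removed). Y73B3A.18, with 719 bases of exon, fell by 4.58 with the trend kept and by 5.07 with it removed, with 3.47 and 3.65 CPM in C (HS) and 111 and 60.3 CPM in C. AC3.5 was at 9.68 and 9.11 CPM in C (HS) and 177 and 158.5 CPM in C (log2 fold change -4.16, SE 0.25, or -2.86 with the trend removed). The larger fitted drop of T27A1.1 is no such case. It had 1 and 1 reads in C (HS), but 2156 and 68 reads in the C replicates, and its call (edgeR adjusted p = 0.0342) was lost without C replicate 1 (0.315), C (HS) replicate 1 (0.148) or C (HS) replicate 2 (0.153).

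Intron reads set the heat-shocked replicates apart at the genes that rose most. Over 48 genes with a log2 fold change above 3, at least 2 exons and at least 500 exon reads in both C (HS) libraries, the median share of intron reads was 1.0% in C (HS) replicate 1 and 0.0134% in replicate 2. It was higher in replicate 1 for 45 of them, and more than 5 times higher for 34 (70.8%). Among 1088 genes that were not called, 24.4% had such a gap and 85 had one the other way, and among 143 genes lower in C (HS), 28%. At hsp-16.2 there were 980 intron reads in replicate 1 and 4 in replicate 2, beside 42298 and 29195 exon reads, and at aip-1 there were 209 and 3. The cause of this gap was not tested.

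**Figure D5:**
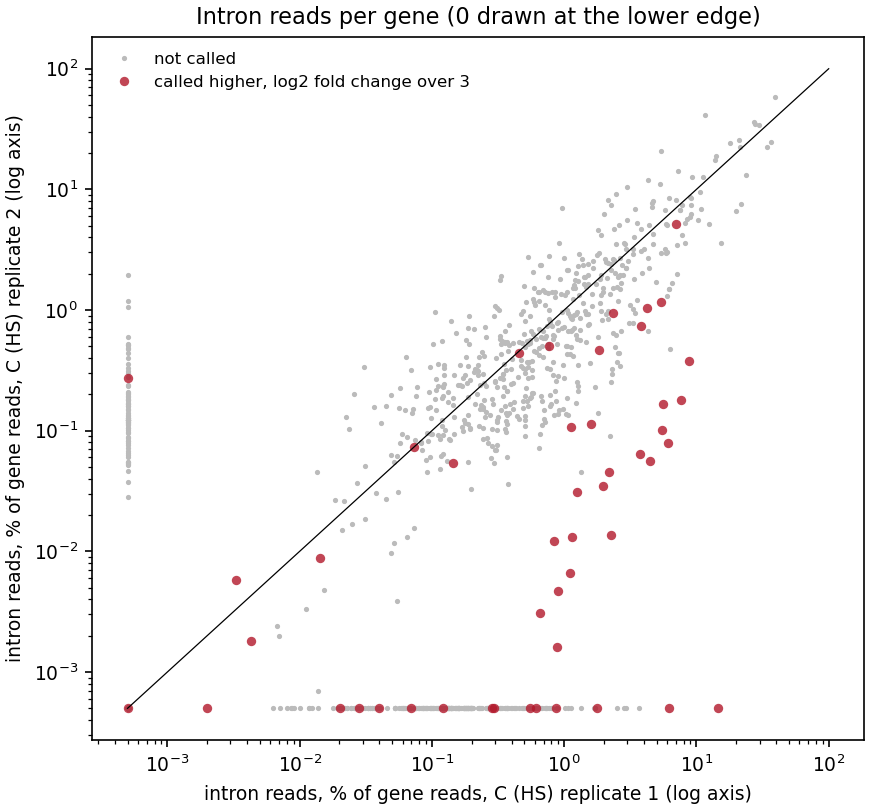
Intron reads as a share of gene reads in C (HS) replicate 2 (y axis, log axis) against replicate 1 (x axis, log axis), each point a gene, with shares of 0 drawn at the lower edge. Genes not called (grey) lie on both sides of the diagonal with a lean to replicate 1 (medians 0.176% and 0.0973%), while most of the 48 genes with a log2 fold change above 3 lie below it, with medians of 1.0% in replicate 1 and 0.0134% in replicate 2.

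The response of C to heat differed from that of rIIS-C. In rIIS-C (HS) against rIIS-C 311 genes were called (2.21%), of which 266 were higher (1.89%) and 45 lower (0.32%). The difference between the responses itself passed the test for 2890 genes (20.5%), 1486 with a higher value in C (10.6%) and 1404 with a lower one (9.97%). With the length trend removed it passed for 2159 genes (15.3%), and genes with a higher value in C made up 9.61% of those tested. The inducible hsp genes took 0.0796% and 0.0570% of exon reads in rIIS-C (HS) and 0.152% and 0.317% in rIIS-C, so the rIIS-C libraries labelled as heat-shocked did not show the response, and the treatment itself cannot be told apart from the genotype there. All 9 inducible genes differed in response. Of 160 collagens 24 differed, and of 84 ribosomal protein genes 78, or 50 with the length trend removed.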

How the data were processed

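RNA of whole worms was sequenced from libraries made with the TruSeq RNA v2 kit, which does not mark strand, so reads of overlapping genes cannot be told apart. Per the labels, base calls were converted with CASAVA 1.8.2. The authors aligned reads to WBcel235 with CLC Genomics Workbench and deposited, per gene and library, counts of total and unique exon, intron and gene reads, and RPKM. Coordinates are those of the files, and 46733 of 46856 genes matched the RefSeq table of that assembly. In 2 tables, 6 unnamed columns with values were not used.

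Total exon read counts were tested with edgeR 4.0.16 (R 4.3.3) over all 14 libraries, with a coefficient per group, TMM scaling, filterByExpr, the quasi-likelihood test of C (HS) minus C and Benjamini-Hochberg adjustment at 0.05. The second fit added an offset per gene and library, a lowess curve (span 0.3) of log2 CPM against log2 exon length. CPM are scaled by TMM. Scripts were tested on simulated counts of the 14084 genes tested. The fits recovered 92% of genes changed 4-fold with a length trend kept and 94% with it removed, and called 10% and 0.0504% of unchanged genes. In these simulated counts few genes changed, as many up as down. The length trend was a straight line on log axes, and each gene had a single spread shared by all groups. The data differ in these points, so the shares do not give the rate of false calls in the comparison itself.

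The 39 gene lists and the genes named were chosen with earlier results of these data known. The list of mitochondrially encoded genes had 0 genes tested. Genes named are among the 15 with the largest change in each direction that were called in both fits, had at least 10 CPM in a group and did not overlap between groups, the 4 members of each list furthest from 0 in each direction among those called, all inducible hsp-16 and hsp-70 genes, and hsf-1, daf-16 and skn-1. Intervals of ratios are exact 95% intervals and cover counting error only, as does the floor of 3 reads. Alternatives used other scalings, DESeq2 1.42.0, limma 3.58.1 on log2 of the deposited RPKM plus 1 or 0.1, fewer libraries, a replicate block, the share of junction-crossing reads as a covariate (added after seeing the data) and each library left out. Promoter sequences and motifs were not analysed here. Plots used Python 3.11.15 and matplotlib 3.10.9.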

Additional observations from a re-analysis of the deposited data

Results flagged for a closer look

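The response to heat shock differed between control and rIIS animals for 2890 genes, by a test of the difference itself (edgeR, adjusted p under 0.05; 20.5% of genes tested), among them 59 of the 69 genes named, which were chosen for a large change in C (HS) over C. With the exon length trend removed, 48 of these 59 still differed. Those that did not were Y75B8A.39, ire-1, cnx-1, ufd-2, zip-10, gst-4, ifg-1, lars-2, cox-7C, unc-22 and unc-89. The inducible hsp genes took 0.0796% and 0.0570% of exon reads in rIIS-C (HS) and 0.152% and 0.317% in rIIS-C, so the heat treatment of these libraries and the genotype cannot be told apart in any value here. All values are the log2 fold change of C (HS) over C minus that of rIIS-C (HS) over rIIS-C. For the inducible chaperones it was 10.67 (hsp-16.41), 9.63 (hsp-16.2), 9.14 (hsp-16.11), 8.79 (hsp-16.48), 8.64 (hsp-16.49), 8.35 (hsp-16.1), 7.75 (hsp-70), 7.09 (F44E5.4) and 7.06 (F44E5.5). It was 9.19 for R11A5.3. For genes with next to no reads outside C (HS) the fitted values depend on the prior count and are no bound: 15.91 (Y53F4B.26), 13.43 (Y53F4B.7), 11.33 (ZK250.9), 10.09 (Y38H6C.8) and 6.21 (Y75B8A.39).

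Among other genes of protein folding and removal, the difference was 4.97 for aip-1, 3.05 for hsp-17, 2.72 for unc-23, 2.71 for hsp-4, 2.48 for sqst-1, 2.36 for ubl-5, 2.31 for dnj-13, 2.28 for sti-1, 1.91 for pbs-1 and 1.22 for xbp-1. It was negative for cnx-1 (-1.01), ire-1 (-1.16), ufd-2 (-1.44) and lonp-1 (-1.77). Stress genes differed by 3.79 (mtl-2), 2.98 (cebp-1), 2.38 (zip-10), 1.72 (sod-1), 1.61 (gst-4) and -2.20 (egl-9).

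Genes of translation and metabolism differed by 3.04 (rla-1), 2.65 (rpl-34), 2.59 (fat-5), 2.06 (cox-7C), -1.75 (ifg-1), -1.75 (lars-2), -2.51 (elo-6), -2.69 (elo-5), -2.77 (pho-1) and -2.81 (pept-1). Tissue genes differed by 2.35 (myo-2), 2.16 (perm-2), 1.98 (col-140), -2.36 (unc-89), -2.75 (unc-104), -2.76 (unc-22) and -3.06 (nas-37). Among the genes that fell furthest the values were -3.67 (lam-3), -4.01 (AC3.5), -4.37 (T04F3.1), -4.76 (dpf-6), -4.92 (sul-3) and -5.31 (Y73B3A.18), and for lys-5, with 1 read in the C (HS) libraries together, the fitted value was -7.95.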

How the results depend on the processing

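With 2 libraries a group and depths of 10094132 to 22767301 exon reads, counts of calls moved most with the scaling and the libraries in the fit. With library size alone 996 genes were higher and 7343 lower in C (HS), and limma on log2 RPKM gave 841 and 7292 (plus 1), 765 and 7196 (plus 0.1), and 836 and 7569 (plus 1, no filter). The 4 libraries of C (HS) and C alone gave 2781 and 2095, or 1391 and 612 with the length trend removed. The difference from rIIS-C gave 819 genes in the 8 libraries on empty vector. Leaving out each library in turn gave 2584 to 4339 genes higher and 2517 to 4196 lower, 2138 to 4362 higher and 1330 to 3551 lower with the length trend removed, and 840 to 5748 for the difference from rIIS-C. In these ranges the lowest higher count came without C replicate 1 and the highest without C (HS) replicate 1. The replicate numbers do not pair C (HS) with C, whose gaps between replicates 1 and 2 correlated at 0.0380 across genes. Among other groups they ran from -0.3730 to 0.3177, with rIIS-C (HS) negative against every group but C (HS), and its junction shares also stood the other way round (24.9% in replicate 1, 9.58% in replicate 2), so the replicate block joins that group crosswise. The block gave 3797 higher and 3488 lower, 3281 and 2423 with the length trend removed, and 2669 genes for the difference. With the share of junction-crossing reads as a covariate, added after seeing the data, 4079 were higher and 3690 lower, 3419 and 2439 with the length trend removed, and 3707 genes differed, or 2179 with the length trend removed. Of 1367 values of the 69 genes named under other settings, 1312 kept their direction and side of the threshold, 35 lost the call, 12 gained it and 8 turned sign. These were hsp-6 with library size alone (-0.179) and with limma on RPKM (-0.331, -0.332 and, with no filter, -0.331), and, with the length trend removed, hsf-1 (0.18), daf-16 (0.35), skn-1 (0.70) and unc-89 (0.71). The cause of these changes was not tested.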
